A study of Mus musculus with 10 samples.

Results

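The 10 genes described here encode nuclear receptors, among them those that hepatocytes use to read bile acids, oxysterols, drugs, thyroid hormone and energy state. They are Nr1h2, Nr1h3, Nr1h4, Nr0b2, Nr1i2, Nr1i3, Nr5a2, Thrb, Esrra and Nr2f2, and they were picked by gene symbol from 56748 genes in the table, where each of the 10 had 1 row. All 10 passed the filter on low counts that left 14183 genes for testing. RNA came from primary hepatocytes of wild-type mice that were kept overnight in medium conditioned by cultured adipocytes. The adipocytes had been differentiated from stromal vascular cells of the inguinal fat of male donors (3 mice by the labels) that ate an obesogenic diet for 6 months. Donors of the Mttp_flox_CM group carried floxed Mttp (Mttpf/f), and donors of the Mttp_KO_CM group lacked Mttp in adipose tissue (A-Mttp–/–). Mttp encodes the microsomal triglyceride transfer protein, and since it was deleted in the adipocyte donors and not in the hepatocytes sequenced, its own reads here do not check the labels. Each group has 5 libraries. Both kinds of adipocyte were differentiated with insulin, dexamethasone, indomethacin, rosiglitazone and IBMX and starved overnight before medium was taken. The sources used here name neither the driver of the deletion nor the sex and age of the hepatocyte donors. Whether libraries of 1 group stem from separate cultures is not stated, so each p-value reflects the spread among libraries, which may be technical. The labels give 3 fat donors, fewer than the 5 libraries of a group, so n = 5 counts libraries and not donors.

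Nuclear receptors are transcription factors with a zinc finger domain that binds DNA and a pocket that can bind a small lipophilic ligand. FXR (Nr1h4), LXRβ and LXRα (Nr1h2 and Nr1h3), PXR (Nr1i2) and CAR (Nr1i3) pair with a retinoid X receptor. In liver, FXR senses bile acids and induces SHP (Nr0b2), a receptor without a DNA-binding domain that represses bile acid synthesis, partly by acting on LRH-1 (Nr5a2). LXRs sense oxysterols, PXR and CAR sense drugs, TRβ (Thrb) is the main thyroid hormone receptor of hepatocytes, ERRα (Esrra) works with PGC-1 coactivators on mitochondrial genes, and COUP-TFII (Nr2f2) is best known from venous endothelium and mesenchymal cells.

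Summed counts ran from 14199798 to 15950530 per library in Mttp_flox_CM and from 14283517 to 17178131 in Mttp_KO_CM. Columns of 8 libraries matched a label, and in each group 1 column had a number absent from the labels. These are called the unnumbered libraries and were placed in a group by their letter. Expression is given as CPM, the counts of a gene scaled by the TMM-adjusted library size, and each change is the log2 fold change of Mttp_KO_CM over Mttp_flox_CM from edgeR's quasi-likelihood test. A Benjamini-Hochberg adjusted p under 0.05 over all 14183 genes counted as a change. The summed level of 15 hepatocyte markers ran from 69243 to 72788 CPM in Mttp_flox_CM and from 57550 to 59917 CPM in Mttp_KO_CM, and Alb, the albumin gene, had the highest CPM of them. Markers of other liver cells were also present, with sums of 1551 to 2946 CPM for 17 endothelial genes, 1021 to 1414 CPM for 16 macrophage genes, 63.4 to 123 CPM for 15 stellate and fibroblast genes and 322 to 636 CPM for 10 cholangiocyte genes. The 8 adipocyte markers summed to 101 to 138 CPM, with Lep and Cfd at 0 in all libraries, and 8 lymphocyte and neutrophil markers to 2.13 to 3.34 CPM, with Nkg7 at 0. The endothelial, macrophage, stellate, cholangiocyte and hepatocyte sums were lower in every Mttp_KO_CM library than in every Mttp_flox_CM library, and the adipocyte sum was higher. Most of the adipocyte sum was Fabp4, with means of 98.3 CPM in Mttp_flox_CM and 107.6 CPM in Mttp_KO_CM. Lipe came next and had a log2 change of 1.07 (SE 0.076). Adipoq, Plin1 and Retn reached at most 0.13, 0.71 and 0.20 CPM in any library and were too low to test. Whether the higher sum reflects adipocyte RNA was not tested. Most of the cholangiocyte sum was Spp1, with means of 513 CPM in Mttp_flox_CM and 283 CPM in Mttp_KO_CM. Of the 8 cholangiocyte genes tested, 3 were lower, 0 higher and 5 not called.

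Of the 10 receptor genes, 4 rose in Mttp_KO_CM (Nr1h4, Nr0b2, Nr1i3 and Esrra), 1 fell (Nr2f2) and 5 did not pass the test (Nr1h2, Nr1h3, Nr1i2, Nr5a2 and Thrb). Among all genes tested, 18.2% were called higher, 18.1% lower and 36.4% in either direction. The median log2 change was 0.021 over the 10 receptor genes and 0.0012 over all genes tested, and the medians of the absolute log2 change were 0.16 and 0.14. The receptor genes thus moved by about as much as the median gene tested. The groups did not overlap for the same 5 genes that passed the test, 4 upward and 1 downward, where 13% and 12.7% of all genes tested separated upward and downward.

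**Figure D1:**
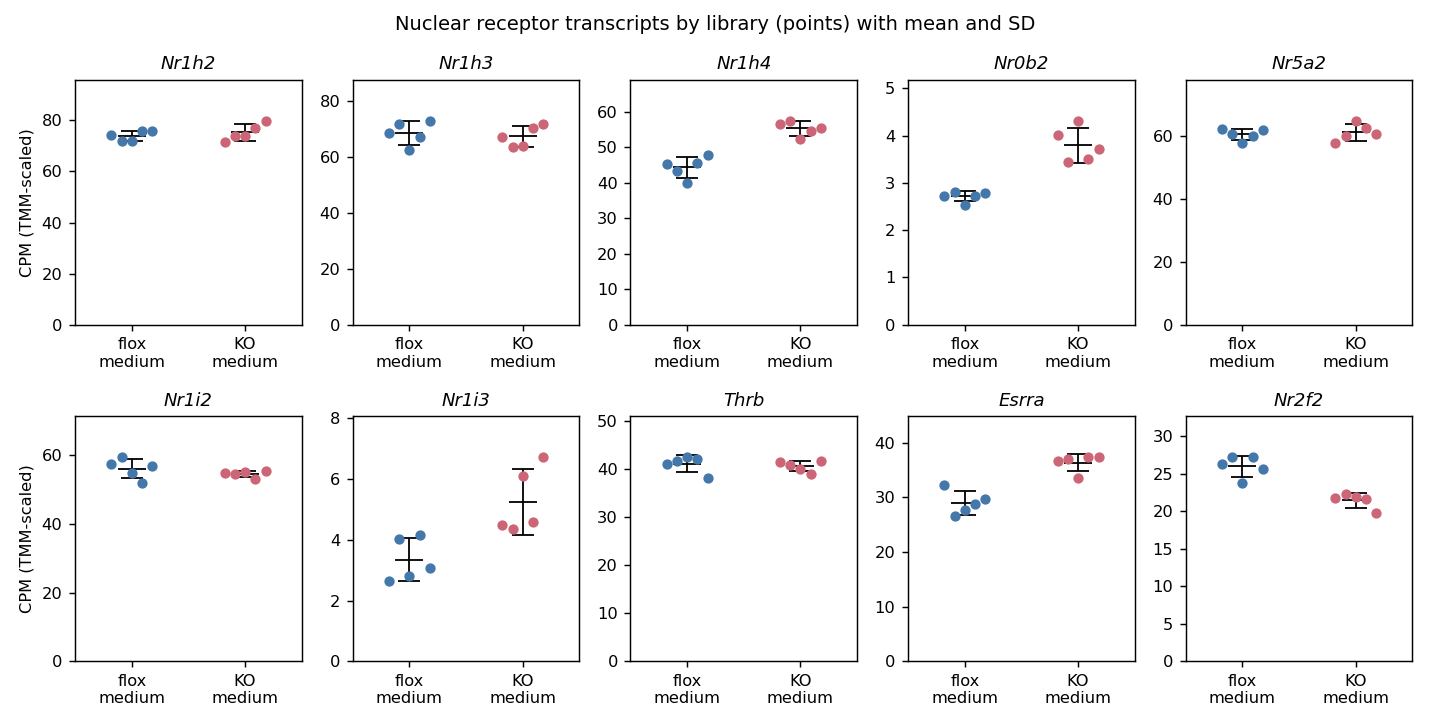
CPM of each receptor gene in each library, with points for libraries, a bar for the group mean and whiskers for the SD (n = 5 per group); every axis starts at 0. Nr1h4, Nr0b2, Nr1i3 and Esrra sit higher and Nr2f2 lower in all 5 Mttp_KO_CM libraries, while the points of the other 5 genes overlap between groups.

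The start-site windows of the 4 genes that rose are shown because these genes moved in the same direction. They come from RefSeq on build GRCm38.p6, 250 bases before to 50 after an annotated start, 5′ to 3′ on the gene's strand. This build differs from the GRCm39 of the count table, so the coordinates cannot be exchanged. Capitals mark a match to AGGTCA, the hexamer to which many nuclear receptors bind, on either strand.
Nr1h4 (chr10:89506609-89506908, minus strand): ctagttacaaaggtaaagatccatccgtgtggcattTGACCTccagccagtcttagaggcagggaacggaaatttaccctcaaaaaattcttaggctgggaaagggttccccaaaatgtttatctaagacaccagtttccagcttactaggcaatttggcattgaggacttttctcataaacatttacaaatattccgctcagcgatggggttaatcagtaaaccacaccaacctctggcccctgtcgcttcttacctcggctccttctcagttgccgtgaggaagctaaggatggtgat
Nr0b2 (chr4:133553126-133553425, plus strand): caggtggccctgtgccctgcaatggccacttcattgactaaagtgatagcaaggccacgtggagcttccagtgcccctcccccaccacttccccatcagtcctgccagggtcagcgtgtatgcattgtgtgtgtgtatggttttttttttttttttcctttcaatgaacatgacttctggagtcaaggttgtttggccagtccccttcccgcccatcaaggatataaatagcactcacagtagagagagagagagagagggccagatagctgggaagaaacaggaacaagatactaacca
Nr1i3 (chr1:171213720-171214019, plus strand): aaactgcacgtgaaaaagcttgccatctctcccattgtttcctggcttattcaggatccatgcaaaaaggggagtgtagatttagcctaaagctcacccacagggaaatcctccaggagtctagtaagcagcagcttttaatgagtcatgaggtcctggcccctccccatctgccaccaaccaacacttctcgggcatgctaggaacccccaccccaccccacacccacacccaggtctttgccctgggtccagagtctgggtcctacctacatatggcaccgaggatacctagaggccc
Esrra (chr19:6921759-6922058, minus strand): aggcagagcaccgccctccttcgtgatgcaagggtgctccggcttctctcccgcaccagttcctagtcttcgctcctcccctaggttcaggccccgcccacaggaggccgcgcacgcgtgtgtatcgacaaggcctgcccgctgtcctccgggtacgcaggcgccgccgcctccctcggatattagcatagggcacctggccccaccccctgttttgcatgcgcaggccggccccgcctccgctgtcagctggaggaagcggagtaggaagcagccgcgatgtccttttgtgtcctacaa

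The window of Nr1h4 held 1 match, TGACCT on the printed strand, which is AGGTCA on the other, starting 214 bases before the start site. The windows of Nr0b2, Nr1i3 and Esrra held no exact match. The search did not allow for variants of the hexamer. Over the 13 windows listed for the 10 genes, 3 held the hexamer, those of Nr1h4, of Nr5a2 (64 bases before the start) and of Thrb (184 bases before), against 16.3% of 32851 windows of all genes. The hexamer preceded by TCA (TCAAGGTCA), its direct repeats with a spacer of 1 base (AGGTCANAGGTCA) or 4 bases (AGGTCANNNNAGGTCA) and its inverted repeat with a spacer of 1 base (AGGTCANTGACCT) were in none of the 13. They occur in 0.423%, 0.0396%, 0.0152% and 0.00913% of all windows. Every longer motif contains the hexamer, so these counts overlap. The Esrra window was rich in CG dinucleotides, with 25 against 7 in that of Nr1h4 and 3 each in those of Nr0b2 and Nr1i3, and the median over all windows was 7. The 4 windows shared none of the motifs searched.

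The bile acid receptor and its repressor partner both rose, while the LRH-1 gene did not pass the test. Nr1h4, which encodes FXR (ENSMUSG00000047638, chromosome 10 from 89290096 to 89369447, minus strand, GRCm39), had 45.2, 43.4, 40.0 and 45.6 CPM in Mttp_flox_CM replicates 1 to 4 and 48.0 in the unnumbered library. In Mttp_KO_CM it had 56.8, 57.6, 52.4 and 54.6 CPM in replicates 1 to 4 and 55.5 in the unnumbered library. The lowest Mttp_KO_CM library thus lay above the highest Mttp_flox_CM library. Nr1h4 rose by 0.32 in log2 terms (SE 0.047, edgeR adjusted p = 7.7e-06), or 1.25-fold.

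Nr0b2, which encodes SHP (ENSMUSG00000037583, chromosome 4 from 133280687 to 133283847, plus strand), was a low-count gene with 39 to 44 counts per Mttp_flox_CM library and 49 to 73 per Mttp_KO_CM library. Its CPM values were 2.72, 2.81, 2.54 and 2.73 in Mttp_flox_CM replicates 1 to 4 and 2.79 in the unnumbered library. They were 4.01, 3.44, 4.32 and 3.50 in Mttp_KO_CM replicates 1 to 4 and 3.71 in the unnumbered library, all above the Mttp_flox_CM values. Nr0b2 rose by 0.48 (SE 0.15, edgeR adjusted p = 0.010), or 1.40-fold. Its counts limit the precision, and the 95% interval of the log2 change ran from 0.18 to 0.78.

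Nr5a2, which encodes LRH-1 (ENSMUSG00000026398, chromosome 1 from 136770309 to 136888186, minus strand), a receptor of bile acid and cholesterol genes, stood at 60.5 ± 1.79 CPM (SD, n = 5) and 61.2 ± 2.74 CPM. Its log2 change was 0.017 with a 95% interval of -0.069 to 0.10 (edgeR adjusted p = 0.79), and the groups overlapped. The ratio of the deposited FPKM of Nr0b2 to that of Nr5a2, a description with no test, was 0.234 ± 0.0059 in Mttp_flox_CM and 0.324 ± 0.030 in Mttp_KO_CM without overlap. The ratio of Nr0b2 to Nr1h4 was 0.12 ± 0.0056 and 0.14 ± 0.018, and these overlapped.

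Genes that FXR is known to induce split in both directions. Of 16 listed, 14 were tested, 4 were higher and 5 lower (median log2 -0.0067), and 1 of the 4 was Nr0b2 itself. The median was -0.046 with library size alone, and with the stricter filter 2 were higher. Abcc2, a canalicular export pump for conjugated anions, rose by 0.41 (SE 0.035), and Sdc1, a heparan sulfate proteoglycan, by 0.21. The remaining higher gene was Insig2 (log2 0.095, SE 0.035, edgeR adjusted p = 0.033), named after its value was seen. Its call was lost under 10 of 20 alternatives. Abcb11, the bile salt export pump, had 76.9 to 81.2 CPM in Mttp_flox_CM and 54.3 to 62.1 CPM in Mttp_KO_CM. Abcb11 fell by 0.45 (SE 0.042, edgeR adjusted p = 4.0e-09). Baat, which conjugates bile acids to amino acids, fell by 0.53 (SE 0.052), and the fibrinogen chain gene Fgb, also one of the hepatocyte markers, fell by 0.28. The remaining lower genes were the other fibrinogen chain genes, Fga and Fgg, which fell by 0.14 and 0.22. Both were named after their values were seen. The exporters Slc51a and Slc51b were too low to test. Beside these values, 11 of 15 hepatocyte markers fell and 3 rose (median log2 -0.24), and the part of that shift in the target lists was not tested.

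Bile acid genes that SHP is known to repress moved both ways. Of 6 listed, 5 were tested, 2 were higher and 1 lower (median log2 0.11). Cyp7a1, the rate-limiting enzyme, had 0.334 to 1.16 CPM in Mttp_flox_CM and 0.0656 to 0.354 CPM in Mttp_KO_CM and did not pass the filter. Akr1d1, a steroid reductase of the pathway, fell by 0.58 (SE 0.14), and the bile acid importer Slc10a1 had a log2 change of -0.29 (SE 0.15, edgeR adjusted p = 0.13), and it passed without Mttp_flox_CM replicate 3 (log2 -0.40, edgeR adjusted p = 0.034). Cyp27a1, the sterol 27-hydroxylase, rose by 0.11 (SE 0.034), a call lost without Mttp_flox_CM replicate 3 (log2 0.090, edgeR adjusted p = 0.064). Cyp8b1, the sterol 12-hydroxylase, had a log2 change of 0.33 (SE 0.13, edgeR adjusted p = 0.043). That call was lost under 10 of 20 alternatives, among them leaving out Mttp_flox_CM replicate 1, 2 or 3, Mttp_KO_CM replicate 4 or the unnumbered Mttp_KO_CM library, with log2 values from 0.24 to 0.31. Without Mttp_flox_CM replicate 3 the list had 0 higher and 2 lower, and without any of the other 4 libraries 1 higher. With library size alone it had 0 higher, and with the stricter filter of 5 CPM in 5 libraries 1 higher and 0 lower. With no filter, where Cyp7a1 was also tested, the list had 2 higher and 2 lower.

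LRH-1 targets, which share Abcg5, Abcg8, Cyp7a1, Cyp8b1 and Nr0b2 with other lists here, had 4 of 8 tested genes higher and 2 lower (median log2 0.11). The sterol exporter genes Abcg5 and Abcg8 fell by 0.25 and 0.18. The count of higher genes was 2 without Mttp_flox_CM replicate 1, 2 or 3 or without the unnumbered Mttp_KO_CM library, 2 with library size alone and 1 with the stricter filter. The median was 0.071 without the unnumbered Mttp_flox_CM library and 0.069 with library size alone.

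Neither oxysterol receptor gene passed the test. Nr1h2, which encodes the widely expressed LXRβ (ENSMUSG00000060601, chromosome 7 from 44199040 to 44203375, minus strand), had 73.9 ± 2.02 CPM and 75.3 ± 3.20 CPM (SD, n = 5) in the 2 groups, Mttp_flox_CM first. Its log2 change was 0.025 (95% interval -0.056 to 0.11, edgeR adjusted p = 0.67). Nr1h3, which encodes LXRα, the form of liver, fat and macrophages (ENSMUSG00000002108, chromosome 2 from 91014406 to 91033179, minus strand), had 68.6 ± 4.15 and 67.4 ± 3.71 CPM. Its log2 change was -0.026 (95% interval -0.12 to 0.070, edgeR adjusted p = 0.71). Per gene length, Nr1h3 exceeded Nr1h2 in both media, with an FPKM ratio of 1.24 ± 0.069 and 1.19 ± 0.044.

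Genes that LXRs are known to induce moved apart. Of 13 listed, 12 were tested, 5 were higher and 4 lower, with a median log2 change of -0.071 but a positive mean (0.16). The 4 with the smallest p-values were all higher. They were Scd1, the stearoyl-CoA desaturase (log2 1.40, SE 0.036), Srebf1, the lipogenic regulator (0.72, SE 0.039), Lpcat3, which places polyunsaturated chains in phospholipids (0.69, SE 0.032), and Abca1, the cholesterol exporter (0.51, SE 0.032). Mylip, which marks the LDL receptor for breakdown and was named after its value was seen, went from 42.1 ± 2.15 to 23.6 ± 2.49 CPM (SD, n = 5). Mylip fell by 0.83 (SE 0.061, edgeR adjusted p = 4.6e-11). Abcg5, Abcg8 and Apoe were the others that fell, Apoe by 0.15 (SE 0.026). Macrophages also express several of these genes, and 14 of 16 macrophage markers fell while 2, Cd14 and Cd68, rose. The summed macrophage markers ran from 1286 to 1414 CPM in Mttp_flox_CM and from 1021 to 1110 CPM in Mttp_KO_CM, and their part in these values was not tested.

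Of the xenobiotic receptor genes, Nr1i3 passed the test and Nr1i2 did not; the difference between their changes was not tested. The FPKM ratio of Nr1i2 to Nr1i3 was 30.1 ± 6.44 (SD, n = 5) in Mttp_flox_CM and 18.5 ± 3.39 in Mttp_KO_CM, and the groups overlapped. Nr1i2, which encodes PXR (ENSMUSG00000022809, chromosome 16 from 38068685 to 38115186, minus strand), had 56.0 ± 2.81 CPM with flox medium and 54.5 ± 0.95 CPM with KO medium (SD, n = 5). Its log2 change was -0.039 (95% interval -0.13 to 0.047, edgeR adjusted p = 0.51). Nr1i3, which encodes CAR (ENSMUSG00000005677, chromosome 1 from 171041539 to 171048270, plus strand), had the lowest FPKM of the 10 genes.

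Nr1i3 had 38, 60, 45 and 67 counts in Mttp_flox_CM replicates 1 to 4 and 45 in the unnumbered library, or 2.65, 4.02, 2.79, 4.16 and 3.07 CPM. In Mttp_KO_CM it had 68, 62, 103 and 72 counts in replicates 1 to 4 and 94 in the unnumbered library, or 4.47, 4.35, 6.09, 4.59 and 6.71 CPM. The groups were separated by a narrow margin, from 4.16 to 4.35 CPM, and replicate 3 and the unnumbered library were the highest of Mttp_KO_CM. Nr1i3 rose by 0.65 (SE 0.17, edgeR adjusted p = 0.0030), or 1.57-fold, with a 95% interval of 0.31 to 0.99. This was the largest fitted rise among the 10 genes. Nr1i3 shares 4691 bases with Tomm40l on the opposite strand, and without strand information reads from the shared stretch cannot be told apart. Tomm40l had 758 counts over Mttp_flox_CM and 731 over Mttp_KO_CM, with a log2 change of -0.056 (SE 0.11).

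PXR and CAR targets also split, with 7 of 20 tested genes higher and 5 lower (median log2 0.060, mean -0.053). Alas1, the first enzyme of heme synthesis, rose by 0.59 (SE 0.033), and Por, the electron donor of microsomal cytochromes P450, by 0.37 (SE 0.024). Cytochrome P450 genes went both ways, with Cyp2a5 and Cyp2b9 up by 0.33 and 0.24. Cyp2b10, the usual CAR marker, ran from 266.6 to 353.4 CPM in Mttp_flox_CM and from 143.7 to 195.6 CPM in Mttp_KO_CM. It fell by 0.80 (SE 0.079, edgeR adjusted p = 1.1e-08). Cyp3a11, the usual PXR marker, fell by 0.29 (SE 0.040), and these 4 genes were named after their values were seen. Cyp3a25 fell by 0.79 (SE 0.064). The organic anion carrier gene Slco1a4 fell by 1.77 (SE 0.070), from 33.9 ± 2.18 to 9.93 ± 0.93 CPM (SD, n = 5). The Cyp2b, Cyp3a and Slco1a genes have near-identical relatives whose reads the counting could split, so these values are uncertain to that extent.

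**Figure D2:**
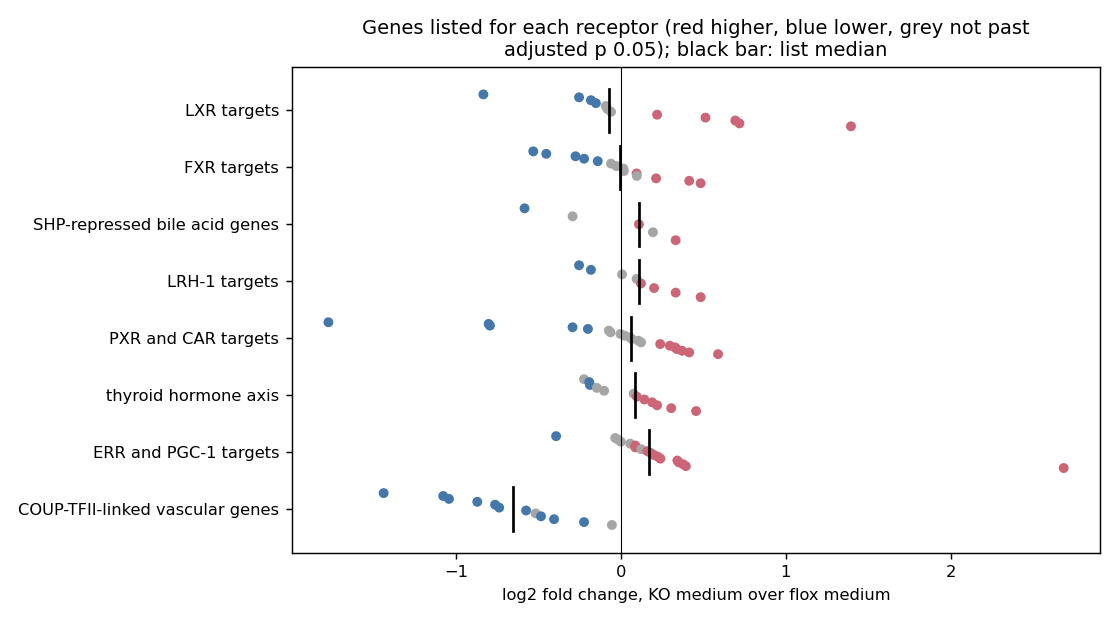
Log2 change (Mttp_KO_CM over Mttp_flox_CM) of each tested gene in 8 lists tied to the receptors, coloured by call, with a black bar for the list median. ERR and PGC-1 target and partner genes lie mostly above 0 (12 of 18 higher) and vascular genes mostly below (10 of 12 lower), while the other lists hold genes on both sides.

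The thyroid hormone receptor gene did not pass the test. Thrb (ENSMUSG00000021779, chromosome 14 from 4431611 to 4809435, minus strand) had 41.1 ± 1.77 CPM (SD, n = 5) and 40.7 ± 1.10 CPM, and its log2 change was -0.017 (95% interval -0.11 to 0.074, edgeR adjusted p = 0.81). Thra, the other thyroid hormone receptor gene, had a lower mean FPKM than Thrb, 2.52 against 5.52 in Mttp_flox_CM and 2.16 against 5.47 in Mttp_KO_CM. Thra had 11.7 and 10.0 CPM in the 2 groups (log2 -0.22, SE 0.10, edgeR adjusted p = 0.091). That difference passed without Mttp_flox_CM replicate 4 (log2 -0.31, edgeR adjusted p = 0.010). In the list of hormone carriers, corepressors and targets, 6 of 12 genes were higher and 2 lower (median log2 0.086, or 0.047 with library size alone). Thrsp, a classical thyroid hormone target of lipogenesis, rose by 0.46 (SE 0.076), malic enzyme Me1 by 0.31 (SE 0.031), mitochondrial Gpd2 by 0.22 (SE 0.035) and the transcription factor gene Klf9 by 0.19 (SE 0.033). The carrier gene Slc16a10 rose by 0.14 (SE 0.040). The deiodinase gene Dio1 had a log2 change of -0.10 (SE 0.078).

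Esrra, the energy-linked orphan receptor gene, rose, as did most genes listed as targets or partners of ERR and PGC-1. Esrra (ENSMUSG00000024955, chromosome 19 from 6888345 to 6899208, minus strand) had 32.3, 26.6, 27.7 and 28.7 CPM in Mttp_flox_CM replicates 1 to 4 and 29.7 in the unnumbered library. It had 36.7, 37.0, 33.6 and 37.3 CPM in Mttp_KO_CM replicates 1 to 4 and 37.3 in the unnumbered library. The closest approach was Mttp_flox_CM replicate 1 to Mttp_KO_CM replicate 3. Esrra rose by 0.33 (SE 0.054, edgeR adjusted p = 2.9e-05), or 1.25-fold. Esrra shares 73 bases with Trmt112 on the opposite strand, which itself rose by 0.19 (SE 0.058).

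Of 18 ERR and PGC-1 target and partner genes, 12 were higher and 1 lower (median log2 0.17, against 0.0012 over all genes). With library size alone 10 were higher and the median was 0.13. Pdk4, which encodes an inhibitory kinase of pyruvate dehydrogenase and is also a known PPARα target, rose by 2.68 (SE 0.043). Cycs, which encodes cytochrome c, rose from 121 ± 6.27 to 160 ± 6.10 CPM (log2 0.39, SE 0.037). Mfn2, a mitochondrial fusion protein gene, rose by 0.38 (SE 0.031) and Acadm, the medium-chain acyl-CoA dehydrogenase, by 0.34 (SE 0.028). Sdha, a subunit of succinate dehydrogenase, had 282.7 CPM in both groups. The coactivator genes were low and went opposite ways. Ppargc1b had 5.53 and 7.06 CPM (log2 0.35, SE 0.12) and Ppargc1a 5.97 and 4.57 CPM (log2 -0.39, SE 0.14). Both were named after their values were seen, and their calls were lost under 5 and 8 of 20 alternatives. For Ppargc1b these included leaving out Mttp_flox_CM replicate 2 or unnumbered or Mttp_KO_CM replicate 3 (log2 0.28 to 0.32). For Ppargc1a, the only lower gene of the list, they included leaving out Mttp_flox_CM replicate 1, 3, 4 or unnumbered or Mttp_KO_CM replicate 1 or 3 (log2 -0.38 to -0.31), which left 0 lower.

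Nr2f2 was the receptor gene that fell. Nr2f2, which encodes COUP-TFII (ENSMUSG00000030551, chromosome 7 from 70001692 to 70016483, minus strand), had 26.2, 27.2, 23.8 and 27.2 CPM in Mttp_flox_CM replicates 1 to 4 and 25.6 in the unnumbered library. In Mttp_KO_CM it had 21.8, 22.2, 21.8 and 21.7 CPM in replicates 1 to 4 and 19.8 in the unnumbered library. All 5 Mttp_KO_CM libraries lay below all 5 of Mttp_flox_CM. Nr2f2 fell by 0.28 (SE 0.057, edgeR adjusted p = 4.2e-04), to 0.826 of its level. The lncRNA gene B130024G19Rik overlaps it on the opposite strand and had 31 and 20 counts per group. Its close relative Nr2f1, named after its value was seen, fell by 0.84 (SE 0.22), from 2.47 ± 0.57 to 1.37 ± 0.34 CPM (SD, n = 5).

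Markers of cells that COUP-TFII is best known from were lower in the same libraries. All 17 endothelial markers fell (median log2 -0.99), and their sum was at 0.543 to 0.576 of the Mttp_flox_CM mean in the Mttp_KO_CM libraries. Of 12 tested stellate and fibroblast markers 10 fell and 0 rose (median log2 -1.07), with sums at 0.548 to 0.609. Nr2f2 was at 0.760 to 0.856 in the same libraries, and the summed hepatocyte markers at 0.809 to 0.843. The macrophage sum, at 0.756 to 0.822, and the cholangiocyte sum, at 0.542 to 0.655, were lower too, so the fall was not particular to endothelial and stellate markers. In a bulk culture, fewer cells of a type and less RNA per cell cannot be told apart. The part of these cells in the Nr2f2 value was not tested.

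Vascular genes tied to COUP-TFII, the Notch pathway and lymphatic fate fell in 10 of 12 tested, and 0 rose (median log2 -0.66). Their median was -0.75 without Mttp_KO_CM replicate 3 and -0.52 on log2(FPKM + 1). The list sets no expected direction for its genes, so their fall beside that of Nr2f2 is a description only. Kdr, Flt4 and Lyve1, which are also among the endothelial markers, fell by 1.44, 1.08 and 0.87. The Notch ligand gene Dll4 fell by 1.04 (SE 0.058). Prox1, which marks lymphatic endothelium and is also expressed in hepatocytes, had 103 and 99.4 CPM (log2 -0.055, SE 0.037), and it was named after its value was seen.

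**Figure D3:**
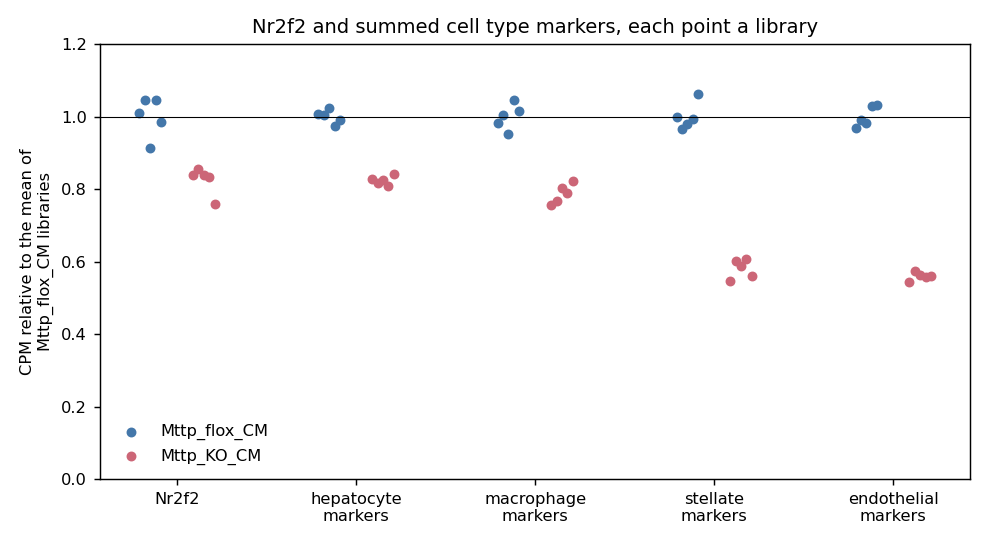
Nr2f2 and the summed CPM of 4 marker lists in each library, divided by the mean of the Mttp_flox_CM libraries; the line marks 1. In Mttp_KO_CM, Nr2f2 lies at 0.760 to 0.856, the hepatocyte sum at 0.809 to 0.843 and the endothelial sum at 0.543 to 0.576.

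Compared per gene length, as deposited FPKM, the 10 genes spanned from 27.1 for Nr1h3 to 0.752 for Nr1i3 in Mttp_flox_CM. After Nr1h3 came Nr1h2 (21.9), Nr1i2 (21.8) and Nr1h4 (19.2), whose library ranges overlapped from 1 neighbour to the next. Nr5a2 (10.2), Esrra (6.53), Thrb (5.52), Nr2f2 (3.00) and Nr0b2 (2.39) followed, each separated from its neighbours. In Mttp_KO_CM 2 genes stood higher in the order. Nr1h4 (23.9) moved past Nr1i2 and Nr1h2 to the place after Nr1h3 (26.6), with a range that overlapped that of Nr1h2 (22.3), and Nr0b2 (3.34) moved above Nr2f2 (2.48) without overlap. The FPKM ratio of Nr1h4 to Nr1i2 went from 0.881 ± 0.075 (SD, n = 5) to 1.13 ± 0.044, and that of Nr1h4 to Nr1h3 from 0.707 ± 0.030 to 0.900 ± 0.060, in both cases without overlap between groups.

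**Figure D4:**
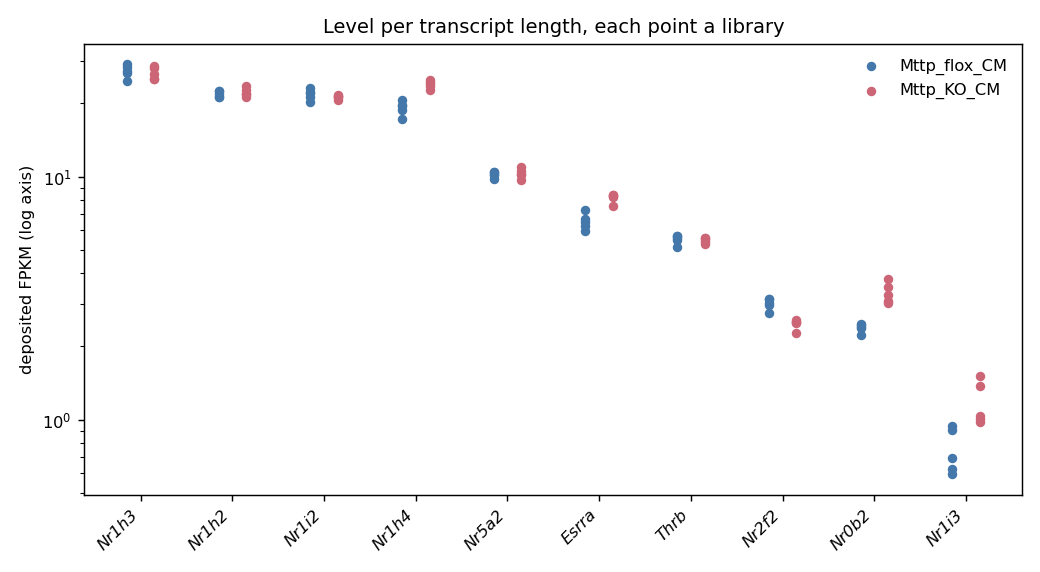
Deposited FPKM of the 10 genes by library on a log axis, ordered by the Mttp_flox_CM mean. Nr1h3 is highest at 27.1 and Nr1i3 lowest at 0.752 in Mttp_flox_CM, and Nr0b2 passes Nr2f2 in Mttp_KO_CM.

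Among the other 39 genes of the nuclear receptor superfamily, 27 were tested, 3 were higher and 7 lower (median log2 -0.080). Ppara, the fatty acid receptor, rose by 0.33 (SE 0.055), about as much as Nr1h4 and Esrra, and the clock repressor genes Nr1d2 and Nr1d1 rose by 0.29 and 0.24. The call for Nr1d1 was lost without Mttp_flox_CM replicate 3 or 4, Mttp_KO_CM replicate 1 or the unnumbered Mttp_KO_CM library (log2 0.17 to 0.22). Among the lower genes, Pparg fell by 0.72 (SE 0.071), Rarb by 0.46, Rarg by 0.41, the glucocorticoid receptor gene Nr3c1 by 0.16 and Hnf4a by 0.080 (SE 0.026), besides Nr2f1. Hnf4a missed the threshold without Mttp_flox_CM replicate 2 or Mttp_KO_CM replicate 3 (log2 -0.072 and -0.060). Rxra, the heterodimer partner of most of the 10 receptors, stood at 250 and 259 CPM (log2 0.051, SE 0.030), and passed without Mttp_KO_CM replicate 3 (log2 0.075, edgeR adjusted p = 0.035). Nr1d2, Nr1d1, Rarb, Rarg, Nr3c1, Hnf4a and Rxra were named after their values were seen. Nr0b1, Rorb, Nr2e1, Nr2e3, Esr2 and Nr5a1 had 0 counts in all 10 libraries.

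In the list of partners and coregulators, 4 of 16 genes were higher and 6 lower (median log2 -0.010). The coactivator genes Ncoa2 and Ncoa3 fell by 0.20 and 0.18 (SE 0.037 and 0.035), and the acetyltransferase gene Ep300 by 0.17. The count of higher genes was 0 with library size alone, and 2 without Mttp_flox_CM replicate 4, Mttp_KO_CM replicate 2 or the unnumbered Mttp_KO_CM library.

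**Figure D5:**
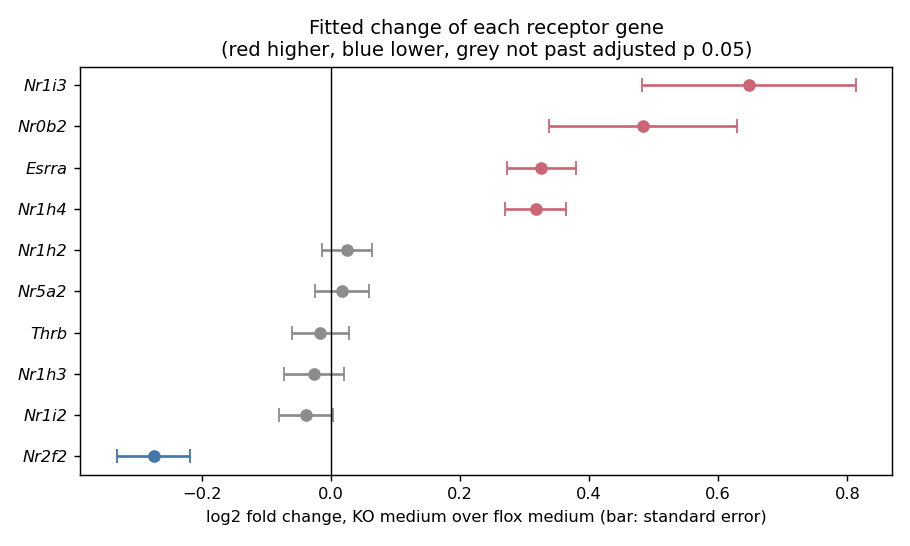
Fitted log2 change of each receptor gene with its standard error, red for higher, blue for lower and grey for not past the threshold. Nr1i3 (0.65) and Nr0b2 (0.48) have the largest rises and the widest errors, Esrra (0.33) and Nr1h4 (0.32) follow with narrow errors, and Nr2f2 (-0.28) is alone below 0 past the threshold.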

How the data were processed

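Libraries of poly-A selected RNA were aligned and counted with HISAT2 2.0.5 and featureCounts 1.5.0-p3 on GRCm39, per the submitters' processing notes. Neither the strand setting nor the treatment of multi-mapped reads is given in the sources used here. The authors deposited raw counts per gene and FPKM values per gene. Each FPKM equalled the count over the gene length and 1 constant per library, and summed counts were 0.980 to 0.984 of the library size so implied in Mttp_flox_CM and 1.00 to 1.01 in Mttp_KO_CM, and how that size was set is not described. FPKM served only to compare levels between genes.

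Differences were tested on the counts with edgeR 4.0.16 under R 4.3.3 (filterByExpr, minimum count 10 and minimum total 15, TMM, glmQLFit, glmQLFTest, no block). The filter kept 14183 of 56748 genes and 99.8% of counts. The script was tested on simulated data. Libraries of a group differed by 2.03 to 4.07 times the sampling noise (chi-square per gene over 20 pairs). None was thus the same library sequenced again. Whether libraries shared a culture or an RNA sample cannot be told from these values. Same-numbered libraries did not deviate together (r from -0.011 to 0.052 over 4 pairs). Intervals use edgeR's total degrees of freedom.

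The 10 genes and 17 lists, 7 of them cell type markers, were chosen with earlier results of these data known. Of 243 listed symbols 1 was matched through an older symbol. The rule for named genes took the 10 receptor genes and up to 4 genes with the smallest p-values of each list; all other genes, among them Sdc1, Apoe, Sdha, Slc16a10, Dio1, Thra and Cyp7a1, were named after their values were seen. The protein sequences of the receptors were not analysed here. Some listed genes are counted but not reported by name here. Alternatives were DESeq2 1.42.0, limma 3.58.1 on voom values and on log2 of FPKM plus 1 or 0.1, other scalings and filters, a replicate block, and leaving out libraries.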

Additional observations from a re-analysis of the deposited data

Results flagged for a closer look

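In 20 groups of 5 libraries (10 genes in 2 groups), 2 had a library whose gap to its nearest neighbour took an outlying share of the group's range, and chance flags about 1 in 20 groups. Esrra stood at 33.6 CPM in Mttp_KO_CM replicate 3, below the 36.7 to 37.3 CPM of the others, and still above every Mttp_flox_CM library. Nr2f2 stood at 19.8 CPM in the unnumbered Mttp_KO_CM library, below the 21.7 to 22.2 CPM of the others. Without that library Nr2f2 had a log2 change of -0.25, and without Mttp_KO_CM replicate 3 Esrra had one of 0.36; both still passed.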

How the results depend on the processing

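Over all 20 alternatives in which they were tested (19 for Nr0b2 and Nr1i3), the 10 receptor genes kept their side of the threshold. The log2 change ran from 0.28 to 0.34 for Nr1h4, 0.35 to 0.51 for Nr0b2, 0.31 to 0.74 for Nr1i3, 0.29 to 0.36 for Esrra and -0.31 to -0.20 for Nr2f2. With the stricter filter (5 CPM in 5 libraries) 2 receptor genes were higher, since Nr0b2 and Nr1i3 were not tested. With library size alone 1982 genes were higher and 3217 lower, or 38.1% of called genes higher against 50.1% with TMM. With a replicate block on libraries numbered 1 to 4, which share only a number, 2326 genes were higher and 2325 lower (2264 and 2307 without the block), with 4 receptor genes higher and 1 lower. Leaving out single libraries gave 2305 to 2491 genes higher, 2411 to 2521 lower, and 4 receptor genes higher and 1 lower each time. The sign of the small changes of Nr1h2 (-0.014 to 0.042) and Nr5a2 (-0.023 to 0.038), neither called, differed between alternatives. The block left 2 partners and coregulators higher (of 4) and a median of 0.065 for the LRH-1 list (0.11), while the numbered libraries unblocked gave 2 and 0.064. The median of the SHP-repressed list was -0.097 with no filter, and that of the stellate list -0.43 on log2(FPKM + 1). Depth limits Nr0b2 and Nr1i3, with 38 to 103 counts per library.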
